A study of Mus musculus with 6 samples.

Results

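The transcripts described here encode 10 enzymes of serine, one-carbon and creatine synthesis, and they were followed in the pancreas of mice with caerulein-induced acute pancreatitis (AP). The genes were chosen by name as Phgdh, Psat1, Shmt1, Shmt2, Mthfd2, Aldh1l1, Gnmt, Gatm, Gamt and Cbs. All 10 were found among the 22556 genes listed, and all 10 were among the 16814 genes tested. RNA-sequencing had been carried out on 6 wild-type C57BL/6 mice labelled as 8 weeks old. The 2 saline mice received vehicle only, the 2 AP mice received 10 intraperitoneal injections of caerulein at 200 μg/kg, and the 2 polyI:C/AP mice were pretreated with polyI:C at 10 mg/kg before the same caerulein course. Caerulein is an analogue of cholecystokinin that overstimulates acinar cells, and polyI:C is a synthetic double-stranded RNA sensed by TLR3. The study's methods place the harvest 24 h after the first caerulein injection and state that the animals were fasted beforehand. They do not single out which pretreatment interval the sequenced mice had. No group received polyI:C alone, so every polyI:C effect below is an effect in mice that also received caerulein.

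Serine is made from a glycolytic intermediate by Phgdh, Psat1 and a phosphatase. Shmt1 in the cytosol and Shmt2 in mitochondria then turn serine into glycine and hand its side-chain carbon to folate, on which Mthfd2 and Aldh1l1 act. The methionine cycle uses such carbons to make S-adenosylmethionine, the methyl donor of the cell. Gnmt spends that donor on glycine, Gamt spends it on creatine, and Cbs draws homocysteine out of the cycle towards cysteine. Creatine is made from arginine and glycine by Gatm followed by Gamt. The pancreas is known for its large output of secreted protein and, beside kidney and liver, as a site of creatine synthesis.

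The labels list separate samples for the 2 mice of a group but do not describe how the animals were housed or handled, so p-values measure the spread between these samples only. The read depth was not given. Reads on the listed genes were estimated from the spacing of low values. They came to 3311935 and 3961388 for the saline mice and to 6902899 to 10826069 for the other 4. Reads on genes without a listed value are not in these numbers, so they do not give the depth of sequencing. Of 26 acinar genes chosen as markers, 16 had a value. One library stood apart from the rest. The second polyI:C/AP mouse carried transcripts of intestinal epithelium, with 4336 TPM summed over 12 marker genes chosen after seeing the data, against 19.0 to 42.1 TPM in the other 5 mice. All 12 of these genes were highest in that library, 11 of them by more than 10 times. The 2 polyI:C/AP mice nevertheless lay close together in the sum of the 10 enzymes, at 1755 and 1707 TPM. Some single enzymes lay further apart, among them Shmt1 at 11.3 and 16.4 TPM, Gamt at 86.4 and 103 TPM, and Cbs at 240 and 200 TPM. The enzymes' called differences that use this library are given below with and without it. The pancreas label was checked against 16 acinar genes with values, which summed to 163874 and 147044 TPM in saline mice. The sum of 10 hepatocyte genes was 60.8 to 156 TPM in the 5 mice without intestinal transcripts, with albumin (Alb) at 4.69 TPM or less in every mouse.

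**Figure D1:**
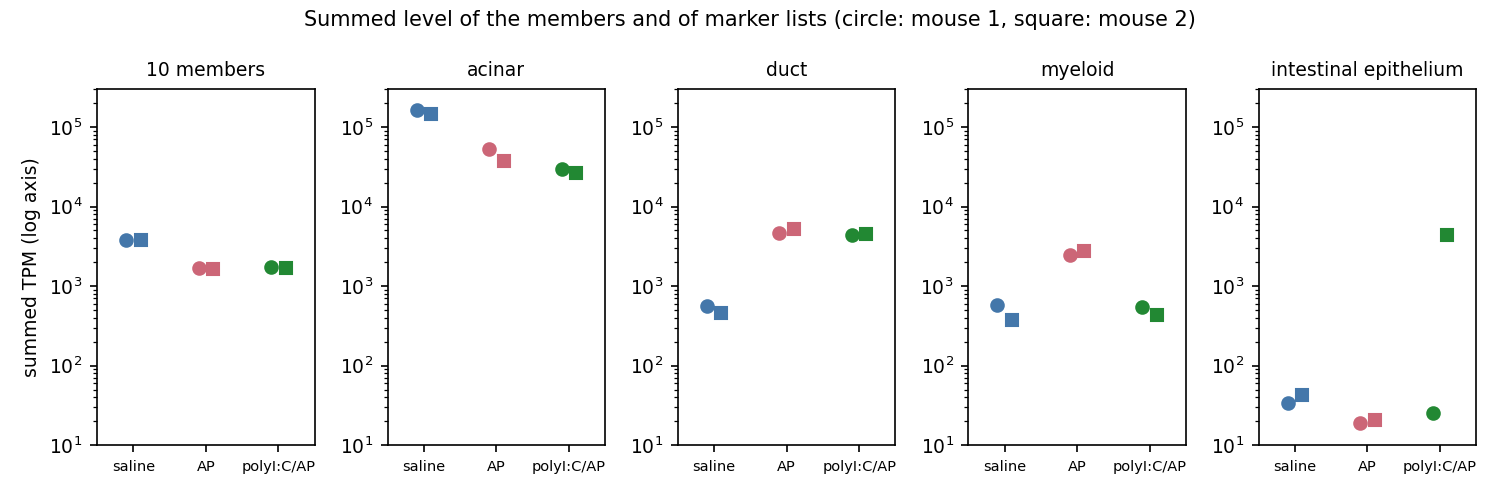
Summed TPM of the 10 enzymes and of 4 marker lists in each mouse, on a log axis, with circles for mouse 1 and squares for mouse 2 of each group. The 10 enzymes sum to 3779 and 3846 TPM in saline mice and to 1644 to 1755 TPM in the other 4 mice, and the intestinal list is high in 1 library only, at 4336 TPM.

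4 of the genes changed by at least 2-fold in a tested comparison, and their upstream sequences are shown because the results turn on them. Each stretch is the reference sequence of 220 bases that ends 31 bases before the RefSeq start (GRCm38.p6), printed 5′ to 3′ in the direction of the gene, with any CACCTG E-box or its reverse complement in capitals. Gnmt and Gamt lie on the minus strand (chr17:46729196-46729415 and chr10:80261043-80261262), as does Gatm (chr2:122611308-122611527), and Aldh1l1 lies on the plus strand (chr6:90550543-90550762), inside the GENCODE span of the gene but in none of its annotated exons.
Gnmt: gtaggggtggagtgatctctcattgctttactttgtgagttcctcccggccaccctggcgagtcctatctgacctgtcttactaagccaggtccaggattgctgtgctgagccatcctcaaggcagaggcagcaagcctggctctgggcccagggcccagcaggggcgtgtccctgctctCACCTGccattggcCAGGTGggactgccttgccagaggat
Gatm: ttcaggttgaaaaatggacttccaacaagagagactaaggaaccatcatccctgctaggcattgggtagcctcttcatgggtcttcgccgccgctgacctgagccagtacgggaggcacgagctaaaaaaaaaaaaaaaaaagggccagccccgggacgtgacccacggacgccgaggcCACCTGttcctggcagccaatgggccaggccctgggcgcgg
Gamt: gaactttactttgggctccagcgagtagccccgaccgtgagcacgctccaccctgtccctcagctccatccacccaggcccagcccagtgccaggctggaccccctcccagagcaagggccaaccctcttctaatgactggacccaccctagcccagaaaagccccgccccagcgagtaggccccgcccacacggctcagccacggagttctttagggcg
Aldh1l1: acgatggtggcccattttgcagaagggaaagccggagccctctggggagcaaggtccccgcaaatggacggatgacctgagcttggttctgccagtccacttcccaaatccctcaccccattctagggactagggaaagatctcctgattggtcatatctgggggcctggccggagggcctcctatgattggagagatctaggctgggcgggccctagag

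The E-box, a core letter pattern bound by helix-loop-helix factors, was searched after the sequences had been read. Within windows of 250 bases before to 50 bases after the start it was present at Gnmt, in both orientations beginning 70 and 56 bases before the start, and at Gatm, 71 bases before the start. It was found in 2 of the 10 enzyme genes, in 22.6% of the 27025 genes with a window and in 11 of 21 acinar genes with a window (52.4%). The C/EBP-ATF element TGATGNAA, the letters recognised by ATF4 with its partners, was searched on both strands in the same windows. None of the 10 enzyme genes held it, against 4.51% of all genes and 7 of the 15 genes with a window (46.7%) in a list of ATF4 and its targets. These are matches of letters and are given as a description.

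Relative to the whole transcriptome the enzymes moved downward in AP. In saline mice the 10 transcripts made up 0.378% and 0.385% of all TPM, in AP mice 0.168% and 0.164%, and in polyI:C/AP mice 0.176% and 0.171%. A gene was called when its Benjamini-Hochberg adjusted p over all tested genes (limma on log2(TPM + 0.5)) was at most 0.05 and the fold change at least 2. The 10 enzymes had been chosen with earlier results of these data known. Shares of all genes are therefore given beside them as a description only. Caerulein reduced 4 of the 10 enzymes, Gnmt, Gamt, Gatm and Aldh1l1, where 4.03% of all tested genes were reduced. It raised 0 of the 10, where 18.2% of all genes were raised. Without regard to fold, 1 enzyme (Shmt2) was higher at an unadjusted p under 0.05, and limma voom on estimated reads also raised 0. Their median log2 fold change was -0.61, against 0.45 for all tested genes. PolyI:C pretreatment raised 2 enzymes, Aldh1l1 and Gamt, above their level in AP mice, where 0.44% of all genes were raised, and reduced 0, where 0.404% were reduced. At an unadjusted p under 0.05 and any fold 1 enzyme (Psat1) was lower, and voom reduced 0. Against saline, polyI:C/AP mice had 3 reduced enzymes, Gnmt, Gamt and Gatm, beside 2.97% of all genes, and 0 raised enzymes beside 16.9%. For the raised direction here both the unadjusted p and voom also gave 0.

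The middle of all genes was itself displaced in TPM, so each change is best read against that displacement. After median-of-ratios scaling the median of all genes was 0.06 in AP against saline instead of 0.45, and the enzymes' median was -1.04. The share of calls that were rises went from 81.8% to 56.9% in the same comparison, and from 85.0% to 58.0% in polyI:C/AP against saline. With this scaling the reduced enzymes numbered 5 (Cbs added) in AP mice and 6 (Psat1, Phgdh and Mthfd2 added) in polyI:C/AP mice. Without the library that held intestinal transcripts the same 3 enzymes were reduced in the remaining polyI:C/AP mouse against saline, with log2 differences of -4.94 for Gnmt (adjusted p = 0.0042), -1.80 for Gamt (adjusted p = 0.00597) and -1.20 for Gatm (adjusted p = 0.017), the lone mouse being assumed to vary like the others. An exact permutation test of 2 against 2 mice cannot give a two-sided p under 0.333, and it was therefore not used for single genes.

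**Figure D2:**
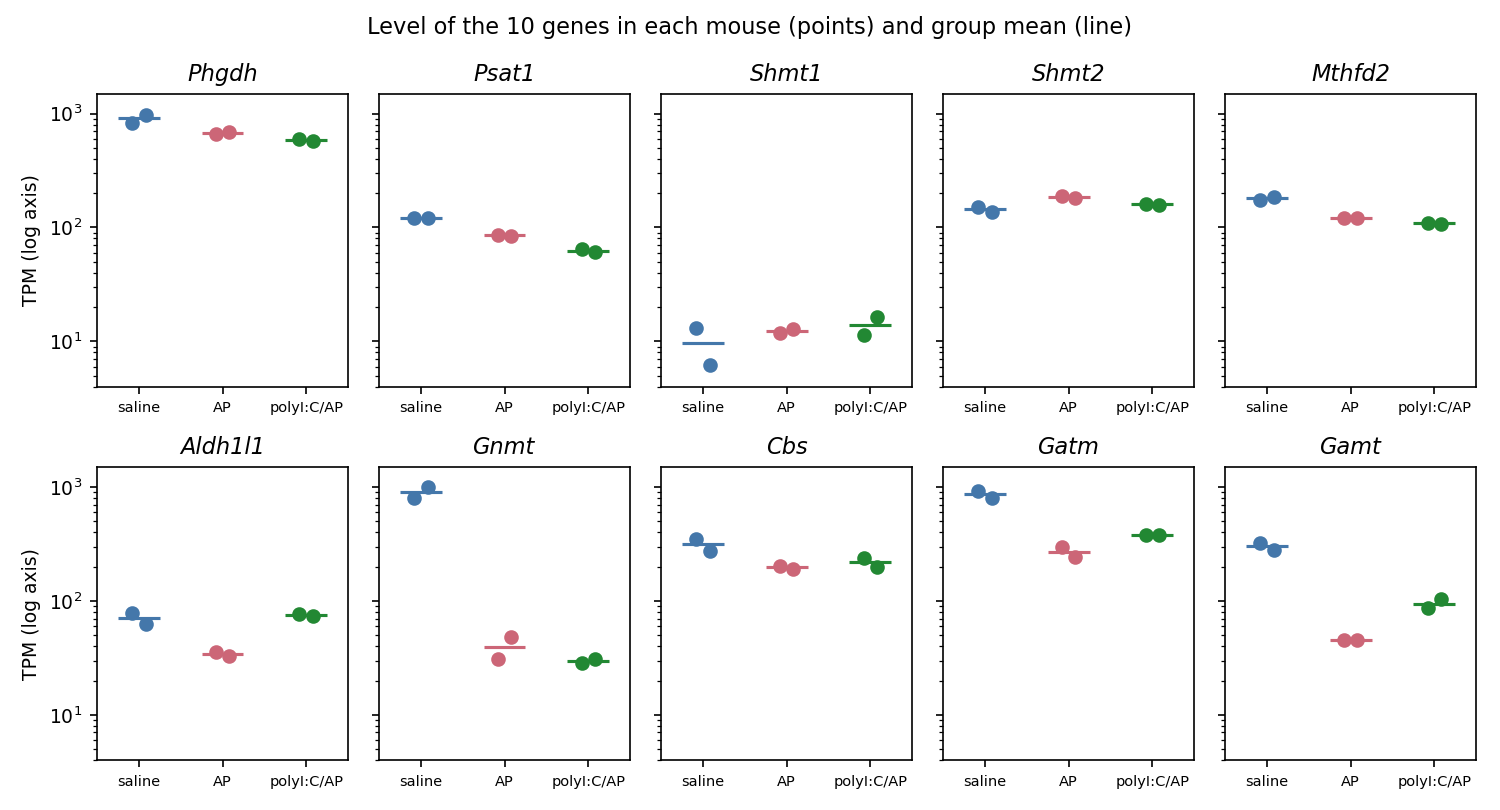
TPM of each of the 10 enzymes in every mouse, on a log axis, with points for mice and a line for the group mean. Gnmt sits at 803 and 1002 TPM in saline mice and between 28.7 and 47.8 TPM in the other 4 mice, while Shmt2 stays between 137 and 188 TPM in all 6.

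Phgdh (GRCm38 chr3:98313170-98339990, minus strand), the dehydrogenase that commits glycolytic carbon to serine, was the most abundant of the 10 transcripts in every group mean. It measured 831 and 978 TPM in saline mice, 659 and 686 TPM in AP mice, and 600 and 576 TPM in polyI:C/AP mice. The saline mice were highest and the polyI:C/AP mice lowest, and no groups overlapped. Lack of overlap was common over all tested genes. In AP against saline 52.6% of them were higher and 16.4% lower without overlap. Between the caerulein groups these shares were 27.7% and 22.1%, and in polyI:C/AP against saline 54.4% and 14.0%. The log2 fold change of Phgdh was -0.42 ± 0.10 (SE, n = 2 per group, limma adjusted p = 0.0174) in AP against saline and -0.62 ± 0.10 (adjusted p = 0.0042) in polyI:C/AP against saline, both under 2-fold. Of the stretches of 100 bases in Phgdh transcripts, 28.1% are shared with its processed copies Gm7901, Gm9347 and Gm8341, so reads from there may be lost or misplaced. Gm7901 was listed at 3.52 to 6.33 TPM and Gm9347 at 0.237 to 4.84 TPM.

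Psat1 (chr19:15904678-15947337, minus strand), the aminotransferase of the next step, had lower values from group to group without passing 2-fold. Its level was 121 and 120 TPM in saline mice, 86.5 and 83.6 TPM in AP mice, and 64.2 and 61.1 TPM in polyI:C/AP mice. The spread within each group was far smaller than the gaps between groups, with SDs of 0.641, 2.04 and 2.14 TPM. The difference was -0.50 ± 0.09 (adjusted p = 0.0048) in AP against saline and -0.94 ± 0.09 (adjusted p = 0.00048) in polyI:C/AP against saline, the latter at 1.92-fold just short of the 2-fold threshold. Between the 2 caerulein groups it was -0.44 ± 0.09 on the log2 scale with an adjusted p of 0.0816, and voom gave -0.47 with an adjusted p of 0.0353. In TPM the ratio of Phgdh to Psat1 was 6.86 and 8.13 in saline mice, 7.62 and 8.20 in AP mice, and 9.36 and 9.41 in polyI:C/AP mice.

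The hydroxymethyltransferases showed no called change. Shmt2 (chr10:127517123-127522444, minus strand), the mitochondrial enzyme, was at 151 and 137 TPM in saline mice, 188 and 182 TPM in AP mice, and 162 and 158 TPM in polyI:C/AP mice. It was higher in AP, by 0.36 ± 0.09 on the log2 scale (adjusted p = 0.0206), which is below the median of all genes, and after median-of-ratios scaling the sign turned to -0.070. Shmt1 (chr11:60788104-60811718, minus strand), the cytosolic enzyme, was the scarcest of the 10 and was measured least well. Its values were 13.0 and 6.21 TPM in saline mice, 11.8 and 12.8 TPM in AP mice, and 11.3 and 16.4 TPM in polyI:C/AP mice, from an estimated 29 to 210 reads. The groups overlapped, and the 95% interval of the AP against saline difference ran from -0.42 to 1.27 on the log2 scale. Exons of the opposite-strand gene Smcr8 cover 4.74% of Shmt1, and those of Ndufa4l2 cover 1.03% of Shmt2.

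Mthfd2 (chr6:83305691-83325908, minus strand), a mitochondrial dehydrogenase and cyclohydrolase of the folate cycle, was lower in both caerulein groups. The measurements were 176 and 184 TPM in saline mice, 120 and 122 TPM in AP mice, and 110 and 108 TPM in polyI:C/AP mice. The saline values lay clear above the other 4, and the 2 caerulein groups were close to each other. Log2 differences were -0.57 ± 0.09 (adjusted p = 0.0025) in AP and -0.72 ± 0.09 (adjusted p = 0.00109) in polyI:C/AP, each against saline and each under 2-fold.

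Aldh1l1 (chr6:90486427-90600203, plus strand), the cytosolic enzyme that releases the formyl group of folate as carbon dioxide, was reduced in AP and lay within the saline range in polyI:C/AP. It measured 78.3 and 62.6 TPM in saline mice, 36.0 and 32.7 TPM in AP mice, and 76.8 and 74.2 TPM in polyI:C/AP mice. Both AP mice were below all other mice, and the polyI:C/AP values fell between those of the saline mice. The AP level was 2.03-fold lower than in saline (log2 -1.02 ± 0.13, adjusted p = 0.00139), just past the 2-fold threshold, and the call was lost without saline mouse 1 (-0.86) or AP mouse 2 (-0.95) because the fold fell short. The polyI:C/AP level was 2.18-fold higher than in AP (log2 1.13 ± 0.13, adjusted p = 0.0212). Without the library that held intestinal transcripts the log2 difference was 1.15, with an adjusted p of 0.277 from 1 remaining mouse. This call was lost when any 1 of the 4 caerulein mice was left out (adjusted p up to 0.354) and with other forms of the prior variance, while the log2 difference stayed between 1.06 and 1.20. The difference between polyI:C/AP and saline was 0.11, with a 95% interval of -0.21 to 0.43, and it changed sign to -0.34 after median-of-ratios scaling. Exons of the opposite-strand gene Gm15756 cover 11.05% of Aldh1l1 and those of the same-strand gene Gm45901 cover 2.33%. The strand option used in counting was not given in the sources used here.

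Gnmt (chr17:46725664-46729168, minus strand), which methylates glycine to sarcosine and so consumes S-adenosylmethionine, showed the widest change of the 10. It measured 803 and 1002 TPM in saline mice, level with Phgdh and Gatm, but 31.2 and 47.8 TPM in AP mice and 28.7 and 31.0 TPM in polyI:C/AP mice. Every caerulein mouse was far below both saline mice, and the ranges of the 2 caerulein groups lay side by side without overlap, from an estimated 80 to 156 reads per library.

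Gnmt was 23.0-fold lower in AP than in saline (log2 -4.52 ± 0.21, adjusted p = 4.64e-05) and 29.6-fold lower in polyI:C/AP (log2 -4.89 ± 0.21, adjusted p = 3.37e-05). The difference between the caerulein groups was -0.37, with a 95% interval of -0.87 to 0.13, so a rise of the size seen for Aldh1l1 or Gamt lay outside that interval. Both calls held under all 18 alternatives tried, among them unadjusted p and no minimum fold, which only loosen the rule. Cbs (chr17:31608894-31637238, minus strand), the enzyme that joins homocysteine to serine, moved less, with 352 and 275 TPM in saline mice, 204 and 190 TPM in AP mice, and 240 and 200 TPM in polyI:C/AP mice. Its log2 difference was -0.66 ± 0.15 (adjusted p = 0.0123) in AP and -0.51 ± 0.15 (adjusted p = 0.0343) in polyI:C/AP against saline, under 2-fold in TPM, and without the library that held intestinal transcripts the latter was -0.37 with an adjusted p of 0.202. In TPM, Gnmt exceeded Cbs by 2.28 and 3.65 times in the saline mice, while the ratio of Gnmt to Cbs was 0.119 to 0.251 in the other 4.

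Gatm (chr2:122594467-122611303, minus strand), which makes guanidinoacetate as the entry step of creatine synthesis, was reduced in both caerulein groups. Its level was 929 and 799 TPM in saline mice, 298 and 241 TPM in AP mice, and 376 and 380 TPM in polyI:C/AP mice. The 3 groups did not overlap, with polyI:C/AP mice between the others. It was 3.21-fold lower in AP (log2 -1.68 ± 0.13, adjusted p = 0.000207) and 2.28-fold lower in polyI:C/AP (log2 -1.19 ± 0.13, adjusted p = 0.000789), each against saline. The caerulein groups differed by 0.49 ± 0.13, which did not pass the test (adjusted p = 0.151).

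Gamt (chr10:80258151-80261012, minus strand), which methylates guanidinoacetate to creatine, had a larger fold change than Gatm. Its values were 323 and 281 TPM in saline mice, 45.6 in both AP mice, and 86.4 and 103 TPM in polyI:C/AP mice. The groups did not overlap, and the polyI:C/AP mice were between the others but nearer to AP. Gamt was 6.55-fold lower in AP than in saline (log2 -2.71 ± 0.13, adjusted p = 5.03e-05) and 3.18-fold lower in polyI:C/AP than in saline (log2 -1.67 ± 0.13, adjusted p = 0.00025). It was 2.06-fold higher in polyI:C/AP than in AP (log2 1.04 ± 0.13, adjusted p = 0.0242), close to the 2-fold threshold. Without the library that held intestinal transcripts that difference was 0.92, under 2-fold, with an adjusted p of 0.277. This call was also lost without any other caerulein mouse or saline mouse 2 (adjusted p up to 0.357), with no filter on low values and with other forms of the prior variance. In TPM the ratio of Gatm to Gamt was 2.88 and 2.84 in saline mice, 6.55 and 5.29 in AP mice, and 4.35 and 3.68 in polyI:C/AP mice. The caerulein comparisons share the same AP or saline mice and are not independent of each other.

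**Figure D3:**
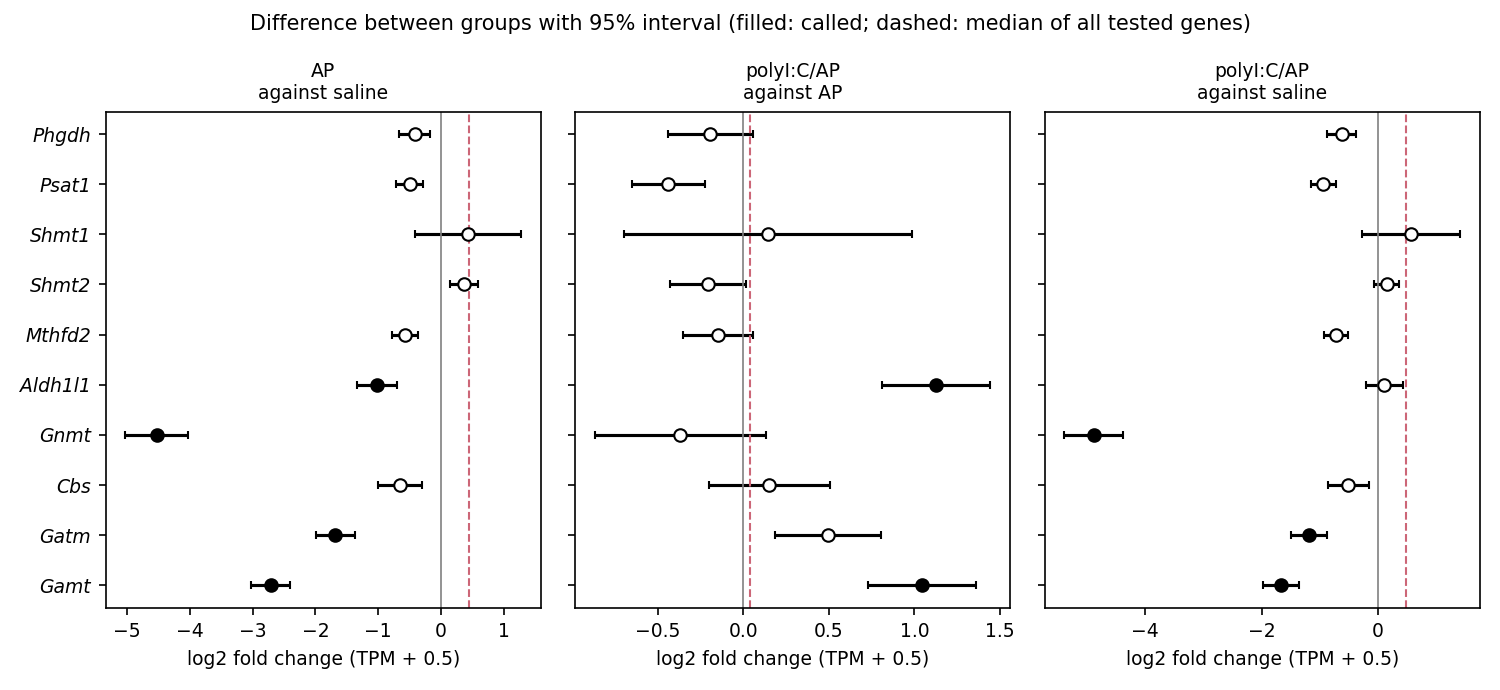
Log2 fold change of each enzyme on the log2(TPM + 0.5) scale with its 95% interval, in 3 comparisons, each panel with its own scale. Filled points passed both thresholds, the dashed line is the median of all tested genes, and the enzymes with filled points are Gnmt, Gamt, Gatm and Aldh1l1 in AP against saline, Aldh1l1 and Gamt between the caerulein groups, and Gnmt, Gamt and Gatm in polyI:C/AP against saline.

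The order of the 10 transcripts differed between groups, on the TPM scale that takes length into account. In saline mice Phgdh, Gnmt and Gatm overlapped at the top with means of 905 ± 104, 903 ± 141 and 864 ± 92.0 TPM (SD, n = 2). Cbs (314 ± 54.8) and Gamt (302 ± 29.8) overlapped below them, followed without overlap by Mthfd2, Shmt2, Psat1, Aldh1l1 and Shmt1. In AP mice Phgdh led at 672 ± 18.8 TPM, Gatm followed at 270 ± 40.3, and Gnmt was rank 8 of 10 at 39.5 ± 11.7, overlapping Gamt and Aldh1l1. In polyI:C/AP mice Gamt (94.9 ± 11.9) and Aldh1l1 (75.5 ± 1.83) stood above Psat1 (62.6 ± 2.14), and Gnmt was rank 9 at 29.8 ± 1.63.

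The marker lists below were likewise chosen with earlier results of these data known. Of 16 tested acinar genes 12 were reduced in AP against saline (beside 4.03% of all genes), and 13 after median-of-ratios scaling. Ptf1a and Nr5a2, transcription factors of acinar cells, had log2 differences of 0.20 and 0.16 that did not pass the test. The summed TPM of the list was 163874 and 147044 in saline mice, 52333 and 37007 in AP mice, and 30024 and 26720 in polyI:C/AP mice. The acinar sum was lower in both polyI:C/AP mice than in either AP mouse. Sycn alone was at 98753 and 86866 TPM in saline mice, 31898 and 21348 TPM in AP mice, and 14466 and 11044 TPM in polyI:C/AP mice. Sycn thus carried much of that sum and of its fall, while the list median between the caerulein groups was 0.11 on the log2 scale. The sum of the 10 enzymes was 1680 and 1644 TPM in AP mice and 1755 and 1707 TPM in polyI:C/AP mice. Beside 0.44% of all genes raised and 0.404% reduced, polyI:C pretreatment raised 4 of the 16 acinar genes over AP and reduced 0. These were Bhlha15 and Rbpjl, also transcription factors of acinar cells, Cckar, the cholecystokinin receptor, and Amy2a5, an amylase. Bhlha15 measured 391 and 326 TPM in saline mice, 53.6 and 46.4 TPM in AP mice, and 161 and 171 TPM in polyI:C/AP mice. Cckar measured 612 and 653 TPM, then 166 and 184 TPM, then 517 and 594 TPM in the same order. As in the case of Gamt and Aldh1l1, the 4 calls were lost without the library that held intestinal transcripts, with log2 differences that stayed at 1.69 for Bhlha15, 1.56 for Cckar, 1.42 for Amy2a5 and 1.10 for Rbpjl. Other acinar genes had lower values in polyI:C/AP than in AP mice without passing the test, at -1.11 for Pdia2, -1.05 for Sycn, -0.90 for Pla2g1b, -0.52 for Tmed6, -0.37 for Klk1 and -0.36 for Serpini2 on the log2 scale. Gata4 (0.80), Ptf1a (0.73), Nr5a2 (0.55), Dnase1 (0.12), Erp27 (0.10) and Cuzd1 (0.080) were higher, also without passing the test.

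Of 14 tested myeloid genes 11 were raised in AP against saline (beside 18.2% of all genes), and 9 after median-of-ratios scaling. PolyI:C pretreatment reduced 3 of them (Lyz2, Itgam and Csf1r) against AP, beside 0.404% of all genes. Without the library that held intestinal transcripts these 3 calls were lost (adjusted p from 0.185 to 0.244), while the log2 differences went from -3.68 to -3.30 for Lyz2, from -2.36 to -2.34 for Itgam and from -1.97 to -1.91 for Csf1r. The summed level of the list was 580 and 379 TPM in saline mice, 2472 and 2722 TPM in AP mice, and 548 and 434 TPM in polyI:C/AP mice. Lyz2 alone was at 1891 and 2118 TPM in AP mice and 203 and 119 TPM in polyI:C/AP mice, and carried most of that fall. Between the caerulein groups the list median was -1.53 on the log2 scale, with Cd14 at -0.050 and S100a8 at 0.14. Against saline, Cd14 and Cd68 were raised in polyI:C/AP mice (log2 3.80 and 1.78), and Lyz2 and Csf1r were reduced (-1.24 and -1.01). Without the library that held intestinal transcripts the last 2 were -0.86 and -0.96. Of 12 duct genes 6 were raised in AP and 7 in polyI:C/AP against saline, the latter being 5 without the library that held intestinal transcripts. The calls lost there were those of Krt7 (log2 0.85, adjusted p = 0.116) and of Car2 (log2 1.43, adjusted p = 0.0971), the latter at 5.37 and 44.7 TPM in the polyI:C/AP mice. Of all genes 18.2% were raised in AP and 16.9% in polyI:C/AP against saline. After median-of-ratios scaling 4 and 5 duct genes were raised in these comparisons. The duct list had sums of 562 and 461 TPM in saline mice, 4683 and 5144 TPM in AP mice, and 4416 and 4552 TPM in polyI:C/AP mice. The sum of hepatocyte genes was 156 and 122 TPM in saline, 60.8 and 73.8 TPM in AP, and 66.1 and 454 TPM in polyI:C/AP mice, the last value carried by Apoa1 and Apob in the library with intestinal transcripts, and no gene of these lists was at 0 in all mice. The part of any of these lists in the changes of the enzymes was not tested. In bulk tissue, fewer cells of a type and less RNA per cell cannot be told apart.

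Around the 10 enzymes, 84 further genes of the same pathways were examined in 5 lists, also chosen with earlier results of these data known. Of these genes 73 were tested. In AP against saline 15 were raised (20.5%, beside 18.2% of all genes) and 12 were reduced (16.4%, beside 4.03%), with a median log2 fold change of 0.25 against 0.45 for all genes. After median-of-ratios scaling 7 were raised and 17 reduced. Between the caerulein groups limma called 0 in either direction, although 7 were higher and 13 lower at an unadjusted p under 0.05. Voom called 1 of these genes, Arg1, which is named after its values were seen. Arg1, the arginase that competes with Gatm for arginine, was at 38.7 and 46.6 TPM in AP mice and 6.20 and 4.93 TPM in polyI:C/AP mice, but at 38.1 and 7.42 TPM in saline mice. Against saline, polyI:C/AP mice had 12 raised (16.4%, beside 16.9% of all genes) and 11 reduced (15.1%, beside 2.97%), and after median-of-ratios scaling 4 were raised and 18 reduced.

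Of 8 tested genes of serine and glycine metabolism, 1 was reduced in AP (beside 4.03% of all genes), and 2 after median-of-ratios scaling (Tdh added, at -1.09). The gene reduced in both was Gcat, which splits a threonine product into glycine, and it measured 666 and 719 TPM in saline mice, 256 and 245 TPM in AP mice, and 230 and 200 TPM in polyI:C/AP mice. Gcat had a log2 fold change of -1.46 ± 0.10 (adjusted p = 0.000158) in AP against saline. Sdsl, a serine dehydratase-like gene, was raised in polyI:C/AP against saline by 1.21 on the log2 scale, though not without the library that held intestinal transcripts (1.09) nor after scaling.

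Of 20 tested folate genes, 4 were raised and 3 reduced in AP (beside 18.2% and 4.03% of all genes). The same counts were found in polyI:C/AP against saline (beside 16.9% and 2.97%). After median-of-ratios scaling 1 was raised and 4 reduced in both comparisons, and without the library that held intestinal transcripts 3 were raised in polyI:C/AP against saline. Ggh, which trims the glutamate tail of folates, was at 1819 and 1956 TPM in saline mice and at 413 to 496 TPM in the other 4. Aldh1l2, the mitochondrial counterpart of Aldh1l1, was at 155 and 151 TPM in saline mice, 37.4 and 33.7 TPM in AP mice, and 29.6 and 33.5 TPM in polyI:C/AP mice. Unlike the values of Aldh1l1, those of Aldh1l2 differed between the caerulein groups by only -0.17 on the log2 scale (adjusted p = 0.557). Sardh, which oxidises the sarcosine that Gnmt makes, fell by 1.30 on the log2 scale in AP. Mtfmt, which formylates the initiator tRNA of mitochondria, and Mthfd1l, which releases formate from mitochondria, rose by 1.65 and 1.26, Mtfmt also after scaling and Mthfd1l not (0.84).

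Of 20 tested genes of the methionine cycle and transsulfuration, 3 were raised and 5 reduced in AP (beside 18.2% and 4.03% of all genes). After median-of-ratios scaling 0 were raised and 7 reduced. Mat1a, which makes S-adenosylmethionine upstream of Gnmt and Gamt, was at 1045 and 1342 TPM in saline mice, 85.5 and 87.6 TPM in AP mice, and 91.8 and 98.3 TPM in polyI:C/AP mice. All 4 caerulein mice were far below the saline mice (log2 -3.77 ± 0.13 in AP, adjusted p = 2.12e-05), and the caerulein groups differed by 0.13. Cth, which completes cysteine synthesis after Cbs, was at 241 and 298 TPM in saline mice, 91.5 and 95.8 TPM in AP mice, and 65.8 and 67.5 TPM in polyI:C/AP mice. Apip of the methionine salvage pathway fell by 2.14 on the log2 scale in AP. Csad, of taurine synthesis, fell by 1.43 in AP and by 1.10 in polyI:C/AP, each against saline. Nnmt, which methylates nicotinamide, rose by 1.66 in AP from 0.745 and 1.82 TPM. After scaling its difference was 1.32 (adjusted p = 0.0936), and without the polyI:C/AP library that held intestinal transcripts, which is in neither group compared here but adds to the shared spread, it was again 1.66 (adjusted p = 0.0674).

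Of 9 tested genes in the creatine handling list, 1 was raised in AP (beside 18.2% of all genes). After median-of-ratios scaling 0 were raised and 1 was reduced (Aldh18a1, at -1.26). The list also holds genes of arginine, ornithine and proline metabolism (Arg1, Arg2, Oat, Odc1, Azin1 and Aldh18a1), so its counts are not of creatine genes alone. Slc6a8, the creatine transporter, was at 4.65 and 2.19 TPM in saline mice, 10.3 and 9.85 TPM in AP mice, and 8.25 and 15.9 TPM in polyI:C/AP mice. Its log2 difference in AP was 1.51 ± 0.39 (adjusted p = 0.0219), a call lost after scaling (1.12). Ckb, a creatine kinase, was at 33.0 and 235 TPM in the polyI:C/AP mice, the higher value in the library that held intestinal transcripts, and without that library its rise over saline was 1.47 with an adjusted p of 0.0814.

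Of 16 tested genes of ATF4 and its targets, 7 were raised and 3 reduced in AP (beside 18.2% and 4.03% of all genes). After median-of-ratios scaling 6 were raised and 3 reduced. ATF4 is the transcription factor of amino acid shortage and the integrated stress response, known to act on Phgdh, Psat1, Shmt2 and Mthfd2. Atf3 was at 2.05 and 6.31 TPM in saline mice, 118 and 106 TPM in AP mice, and 68.0 and 50.6 TPM in polyI:C/AP mice. Trib3 rose by 3.01, Sesn2 by 2.03 and Ddit3 by 1.94 on the log2 scale in AP. Atf5 fell by 1.10 in AP and by 1.38 in polyI:C/AP, each against saline. Over the same AP mice Phgdh, Psat1 and Mthfd2 had log2 differences of -0.42, -0.50 and -0.57, while Shmt2 had one of 0.36 in TPM and -0.070 after scaling. Atf4 and Asns, the asparagine synthetase, are named after their values were seen. Atf4 was at 567 and 683 TPM in saline mice, 965 and 978 TPM in AP mice, and 668 and 663 TPM in polyI:C/AP mice, and Asns differed by -0.54 in AP against saline (adjusted p = 0.00322), both under 2-fold.

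**Figure D4:**
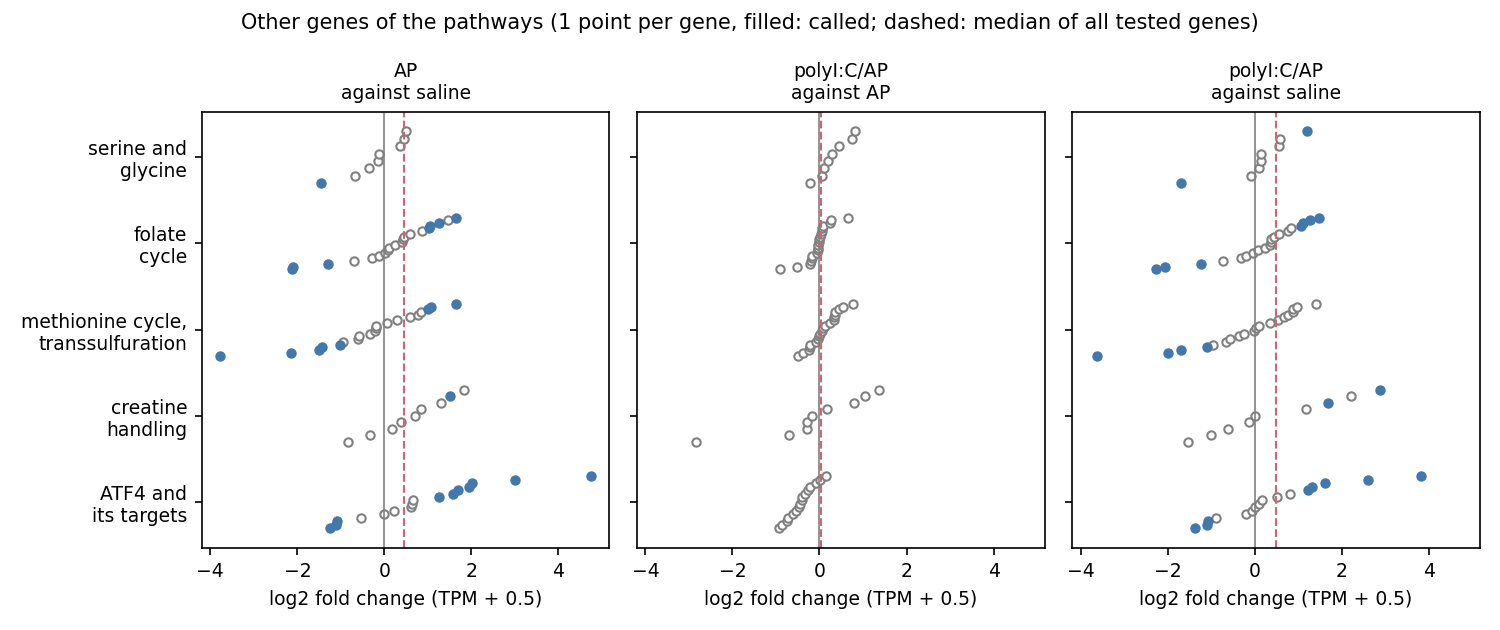
Log2 fold change on the log2(TPM + 0.5) scale of the tested genes of 5 pathway lists, 1 point per gene, in 3 comparisons, with filled points for called genes and a dashed line at the median of all tested genes. Called genes lie on both sides of 0 in both comparisons with saline (15 raised and 12 reduced in AP), and none are filled between the caerulein groups.

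Genes with the profile closest to Gatm and Phgdh were sought among the 9413 genes averaging 10 TPM or more, by the root mean square difference of centred log2 values over the 6 mice. Nearest to Gatm was Edem1 at 0.055, with 592 and 549 TPM in saline mice, 190 and 167 TPM in AP mice, and 245 and 239 TPM in polyI:C/AP mice. Sel1l (0.084), Coq8a (0.097), Trappc9 (0.108) and Klb (0.121) followed. Nearest to Phgdh was Kif16b at 0.031, followed by Prss23 (0.041), Fam117a, Sec23b and Arcn1 (0.055).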

How the data were processed

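RNA-sequencing of pancreas was analysed in 3 groups of 2 mice (saline, AP and polyI:C/AP), grouped by the treatment in the labels. The authors deposited TPM values per gene for each sample, after trimming with Trimmomatic, mapping to mm10 with STAR and counting with HTSeq, as far as the paper's methods and the submitters' processing notes state, and DESeq2 is named for the authors' own tests. The step from counts to TPM and the strand option were not given in the sources used here. The 10 enzymes and all gene lists were chosen with earlier results of these data known, and the intestinal list after its genes had been seen.

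Symbols, lengths and GRCm38 coordinates came from GENCODE M21 (22490 of 22556 identifiers matched). Genes averaging 1 TPM or more were tested on log2(TPM + 0.5) with limma 3.58.1 in R 4.3.3, with 1 coefficient per group, a spread shared by all 6 mice, and a prior variance following log2(mean TPM × exon length + 1). Fold changes on this scale understate those of low genes. The adjustment was Benjamini-Hochberg over all tested genes in each comparison, and the script was tested on simulated data. Reads on the listed genes were estimated from the spacing of low TPM values (below 20 reads). Of these values 51.2% to 62.5% fell within 0.1 of a whole read, against 19.3% to 20.6% with lengths shuffled. These read numbers are estimates, leave out genes without a listed value, and were used in the voom alternative only. Besides the 10 enzymes, genes named were the called genes of each pathway list with the largest fold changes, at most 4 per list and comparison, the 5 closest profiles to Gatm and to Phgdh, and genes said to be chosen otherwise. Sequences came from RefSeq windows (all 10 genes matched). Alternatives covered pseudocounts of 0.1 and 1, filters, scaling, priors, voom, the p and fold thresholds, the replicate block, and leaving out samples.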

Additional observations from a re-analysis of the deposited data

How the results depend on the processing

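The calls of Gnmt, Gamt and Gatm against saline held under all 18 alternatives, and that of Aldh1l1 in AP against saline under 16. Those of Aldh1l1 and Gamt between the caerulein groups held under 12 and 10. Among the 18, unadjusted p and no minimum fold only loosen the rule, so no call could be lost under them. The 2 enzymes raised by polyI:C became 1 with no filter on low values and 0 with one prior variance or a prior following the mean log2 value, and 0 to 2 when one mouse was left out. They were 0 without either AP mouse or either polyI:C/AP mouse, and 1 without saline mouse 2.

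Against saline, dropping the minimum fold gave 1 enzyme raised and 8 reduced in AP and 7 reduced in polyI:C/AP, where median-of-ratios scaling gave 6 reduced, and leaving out one mouse gave 0 to 1 raised. Pathway genes raised in AP were 7 after scaling, 9 with voom, 24 with no minimum fold and 9 to 15 without one mouse (9 without AP mouse 1). In polyI:C/AP against saline, scaling gave 4 raised and 18 reduced, voom 6 raised, and no minimum fold 23 raised and 18 reduced. Between the caerulein groups 1 pathway gene was reduced with voom, with only the 2 groups compared, and with unadjusted p, and 0 to 1 without one mouse.

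Signs changed for uncalled values. In AP against saline Shmt2 was -0.070 after scaling, and Shmt1 ranged from -0.077 (without saline mouse 2) to 0.93 when one mouse was left out. Between the caerulein groups Shmt1 ranged from -0.12 (without polyI:C/AP mouse 2) to 0.40. In polyI:C/AP against saline Shmt2 was -0.30 and Aldh1l1 -0.34 after scaling, and with voom they were -0.13 and -0.18. Aldh1l1 ranged from -0.052 (without saline mouse 2) to 0.27 when one mouse was left out. The cause of these shifts was not tested.

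For samples with the same replicate number, deviations from the group means over the tested genes correlated at 0.0075, 0.0351 and -0.00385. Such a correlation over all tested genes cannot exclude a shared batch that touched some of them. With the replicate block the counts of reduced enzymes against saline stayed at 4 in AP and 3 in polyI:C/AP, 2 enzymes were raised between the caerulein groups, and no other call of the enzymes changed.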

Other observations

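Odc1 and Ckmt1 of the creatine handling list were not called in any comparison and are named after their values were seen. Odc1, the first enzyme of polyamine synthesis from ornithine, was at 569 and 641 TPM in saline mice, 929 and 1027 TPM in AP mice, and 669 and 548 TPM in polyI:C/AP mice, with a log2 difference of 0.69 in AP against saline (limma adjusted p = 0.00552) that is under 2-fold. After median-of-ratios scaling the difference was 0.26 with an adjusted p of 0.151. Ckmt1, a mitochondrial creatine kinase, was at 16.2 and 104 TPM in the polyI:C/AP mice, the higher value in the library that held intestinal transcripts, and at 8.22 to 17.5 TPM in the other 4 mice.

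Of 9 tested cell cycle genes 5 (Cdk1, Mcm2, Mcm3, Mcm5 and Pcna) were raised in AP against saline, beside 18.2% of all genes, and 3 after median-of-ratios scaling (without Mcm2 and Pcna). The list had sums of 81.6 and 83.4 TPM in saline mice and 203 and 215 TPM in AP mice. Of 10 stellate cell and fibroblast genes 5 were raised in the same comparison and 0 reduced (beside 18.2% and 4.03% of all genes). After scaling 4 were raised and 1 was reduced.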
